A study of Chelon labrosus with 24 samples.

Results

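The genes described here had array probes that stayed near background in the liver of immature thicklip grey mullets (Chelon labrosus), a coastal fish caged in a harbour. They were chosen by the readout itself: on every one of the 24 arrays, fewer than 50% of a probe's spots carried the scanner software's flag for a signal well above background. Probes whose gene name starts with CYP1, VTG, MHC or PPAR were left out. This gave 94 of 638 probes (14.7%), which carry 30 of 166 gene names (18.1%). In 14 of these genes all 4 probes were silent, 56 probes in all, and in the other 16 genes 38 probes were silent while 26 were detected on at least 1 array. Silent means here only that the flag was missing; the flag is a strict one, with a multiplier of 13 on the background's spread set in the file headers.

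The 4 groups, of 6 arrays each, cross an inner (Pasaia_AZTI) with an outer (Pasaia_Donibane) harbour site and an earlier with a later sampling of whole liver RNA, called first and second. The labels place the samplings at day 5 and day 21, while the series text gives 3 and 15 days of exposure. Every fish was immature and caged, no agent was added, and the labels name no uncaged fish and no strain. Each site is known by its own cages, so cage and site cannot be told apart. The labels number the liver samples without stating that each is a separate fish, so the p-values measure only the spread between these samples. Each of the 3 slides carries 8 arrays, and every group has 2 of them on it. The first sampling fills 1 row of each slide and the second sampling the other, so sampling and slide row cannot be told apart. In bulk liver, fewer cells of a type and less RNA per cell cannot be told apart either.

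The liver label held on its markers. All 4 probes of ApoE, Transferrin, Hepcidin, Haptoglobin and C3, which are proteins the liver secretes, and of CYP7, a bile acid enzyme, were detected on all 24 arrays. All 4 Trypsin probes, a marker of exocrine pancreas, were detected on all 24 arrays too. The arrays detected 371 to 484 probes each, with a median of 456.5.

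A microarray probe reports a transcript only if labelled RNA pairs with its bases. Here RNA was copied from an oligo-dT primer, which starts at a poly(A) tail. Mitochondria carry a small genome of their own, which encodes core subunits of the respiratory chain and of ATP synthase and is transcribed heavily in liver. Gonadotropin-releasing hormones, growth hormone and opsins belong mainly to brain, pituitary and eye. The aryl hydrocarbon receptor (AhR) binds planar pollutants and acts with the partner ARNT, while its repressor AHRR competes for that partner. Some ABC transporters carry conjugated products out of the cell.

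Probes of 1 gene could be silent or bright. CoX1, the catalytic core subunit of cytochrome c oxidase, is shown first because 2 of its probes were silent and 2 were bright on all 24 arrays. A cytochrome b probe named for Chelon labrosus itself, detected on all 24 arrays, and a silent probe of Cox2 are shown beside it. All probes are 55 bases long and are given 5′ to 3′ as the scanner files hold them. The 4 CoX1 probes share no run of 12 or more bases.
CoX1 not detected 1: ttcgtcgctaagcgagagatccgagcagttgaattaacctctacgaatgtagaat
CoX1 not detected 2: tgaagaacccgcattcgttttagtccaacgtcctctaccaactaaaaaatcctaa
CoX1 detected 1: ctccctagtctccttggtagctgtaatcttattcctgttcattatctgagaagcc
CoX1 detected 2: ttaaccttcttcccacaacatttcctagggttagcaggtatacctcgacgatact
Chelon_labrosus_cytb detected: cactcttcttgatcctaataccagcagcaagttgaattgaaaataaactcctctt
Cox2 not detected: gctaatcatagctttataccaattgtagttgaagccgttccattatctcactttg

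The second silent CoX1 probe reads as 18 codons from its second base, with 0 stop codons before the last codon, which is a stop.

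In other genes the silent and the detected probe overlap. Pairs from 3 genes are shown because a silent and a detected probe share a run of bases, and capitals mark the longest run common to a pair. The AHRR pair shares 25 bases, and its detected probe passed on 6 arrays. The pairs of AHRnt1 (spelled so on the array) and of growth hormone share 54 of 55 bases, shifted by a single base, and their detected probes passed on 1 array each.
AHRR not detected: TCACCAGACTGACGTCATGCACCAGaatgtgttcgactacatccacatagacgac
AHRR detected: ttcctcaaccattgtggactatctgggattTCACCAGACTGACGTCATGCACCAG
AHRnt1 not detected: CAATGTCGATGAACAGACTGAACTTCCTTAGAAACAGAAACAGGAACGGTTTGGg
AHRnt1 detected: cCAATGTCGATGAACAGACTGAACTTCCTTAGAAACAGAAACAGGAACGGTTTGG
growth_hormone not detected: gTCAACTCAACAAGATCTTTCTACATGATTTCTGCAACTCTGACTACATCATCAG
growth_hormone detected: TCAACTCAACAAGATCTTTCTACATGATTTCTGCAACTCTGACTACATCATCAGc

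Of the genes with all 4 probes silent, 3 with known roles outside the mitochondrion are shown by their brightest probe.
BCL2 not detected: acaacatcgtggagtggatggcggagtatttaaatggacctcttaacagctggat
Intelectin not detected: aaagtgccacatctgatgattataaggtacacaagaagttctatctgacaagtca
THR_B not detected: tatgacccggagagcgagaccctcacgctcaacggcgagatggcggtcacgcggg

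**Figure D1:**
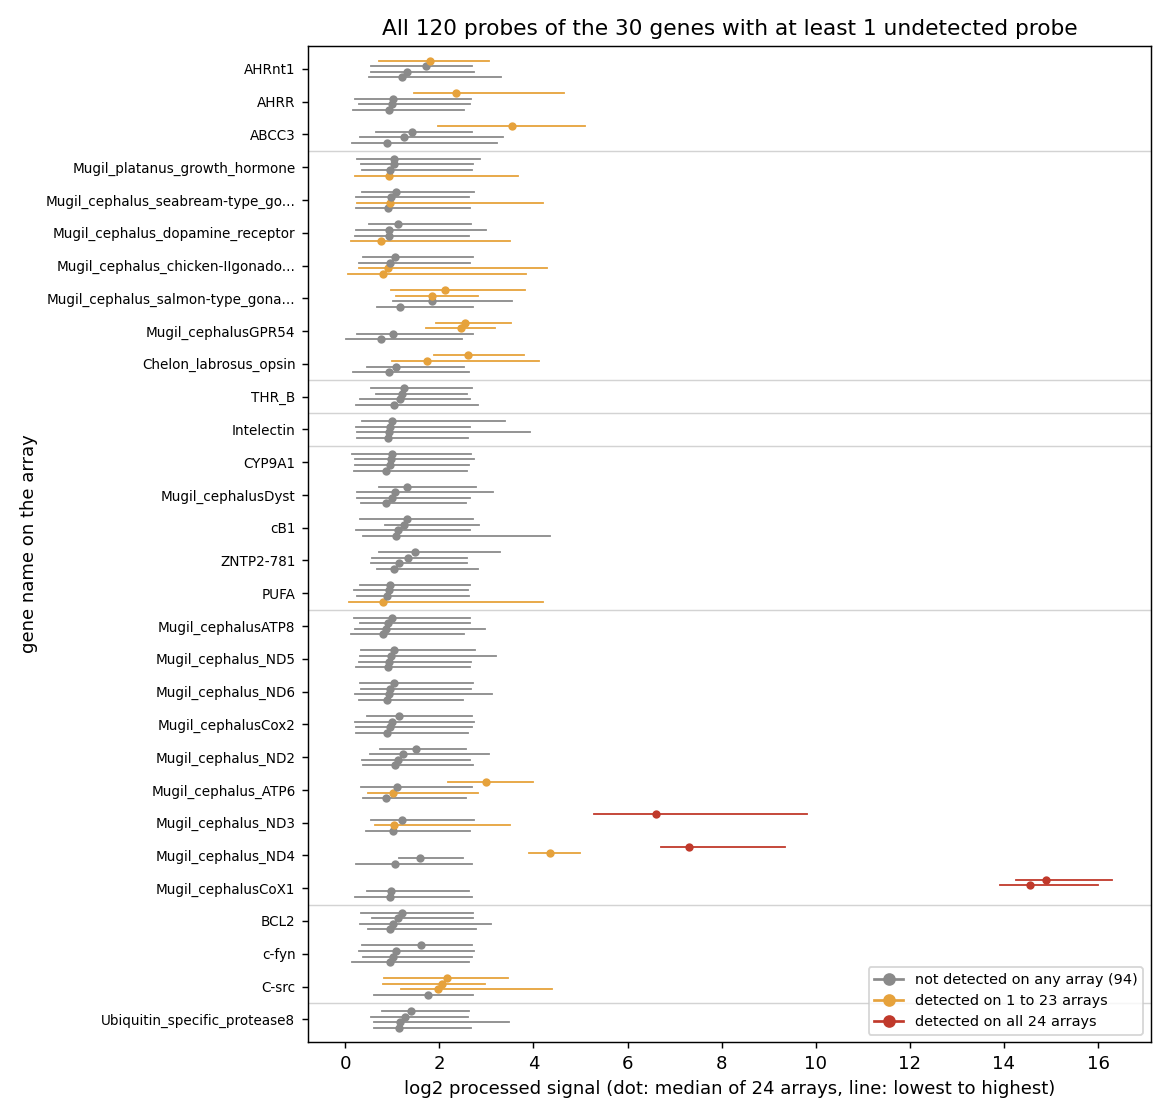
Log2 processed signal (x axis) of every probe of the 30 genes (y axis), grouped by role, where a dot is the median of 24 arrays and a line runs from the lowest to the highest array. Grey probes were silent on all arrays, orange were detected on 1 to 23 and red on all 24; only CoX1, ND3 and ND4 among these genes have red probes.

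Levels below are log2 of the processed signal, the mean over a probe's unmarked spots, unless scaling is named. Signals of different probes are not comparable as transcript levels, so values of different probes stand side by side only to show the flag. The values chose the members and are a description. The role lists below were assigned by hand and cover only part of the 166 gene names.

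Mitochondrial genes held 28 of the 94 members. Of 52 probes for 13 mitochondrial genes, 28 were silent, 14 were detected on all 24 arrays and 10 on some. Cox2, ND2, ND5, ND6 and ATP8 had all 4 probes silent, CoX1, ND3, ND4 and ATP6 had 2 silent probes each, and Cox3, NDsub1, ND4L and cytb had none. Cox2 is a copper-bearing subunit of cytochrome c oxidase, the ND genes encode subunits of complex I, and ATP6 and ATP8 encode subunits of ATP synthase. Read on the opposite strand, a silent ND6 probe starts with ATG and has 1 frame without a stop codon, as it has 1 as printed. A silent ATP6 probe also starts with ATG there, with 0 such frames. Which strand the ND6 probes pair with was not tested.

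CoX1 had both silent and bright probes. The mean of its 2 silent probes ran from 0.48 to 1.03 (median 0.80) over the 6 inner arrays of the first sampling and from 0.35 to 1.12 (median 0.70) over the outer ones. At the second sampling it ran from 0.93 to 1.79 (median 1.20) in the inner and from 0.56 to 2.66 (median 1.19) in the outer harbour. The brighter detected CoX1 probe ran from 14.69 to 16.30, 14.25 to 15.12, 14.56 to 15.30 and 14.69 to 15.33 in the same order of groups. Thus no array of any group was low for the detected probe or high for the silent ones, and the 4 groups overlapped at both. The detected probe passed the test's threshold in none of the contrasts below. Its difference of second minus first sampling was 0.39 ± 0.24 (SE, 6 arrays a group; limma adjusted p = 0.255) in the outer harbour.

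ND3 and ND4 also had probes of both kinds. The brightest ND3 probe was detected on 24 arrays at 5.28 to 9.82 (median 6.61), beside 0.44 to 2.64 (median 1.02) at its dimmest silent probe. The brightest ND4 probe was detected on 24 arrays at 6.72 to 9.35 (median 7.31), beside 0.23 to 2.69 (median 1.05). The highest value of both bright probes belonged to inner first replicate 5. That array's 75th percentile over all probes, 12.14, was the highest of the 24 arrays. ATP6 was intermediate: its brightest probe was detected on 11 arrays, from 2.19 upward with a median of 2.99, and its dimmest silent probe lay at 0.37 to 2.57 (median 0.87).

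The 5 mitochondrial genes with no detected probe lay close together. Gene by gene, the lowest and highest value of a silent probe on any array were 0.21 and 2.74 for Cox2, 0.35 and 3.06 for ND2, 0.22 and 3.20 for ND5, 0.21 and 3.11 for ND6, and 0.12 and 2.98 for ATP8. The medians ran from 0.89 (ATP8) to 1.16 (ND2). Averaged over its 4 probes, Cox2 was 0.33 to 1.21 (median 0.80) in the inner and 0.38 to 1.11 (median 0.71) in the outer harbour at the first sampling, and 0.71 to 1.93 (median 1.20) and 0.64 to 2.67 (median 1.45) at the second. The groups overlapped, and the top of the last group came from the arrays with the highest control signal, given below.

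**Figure D2:**
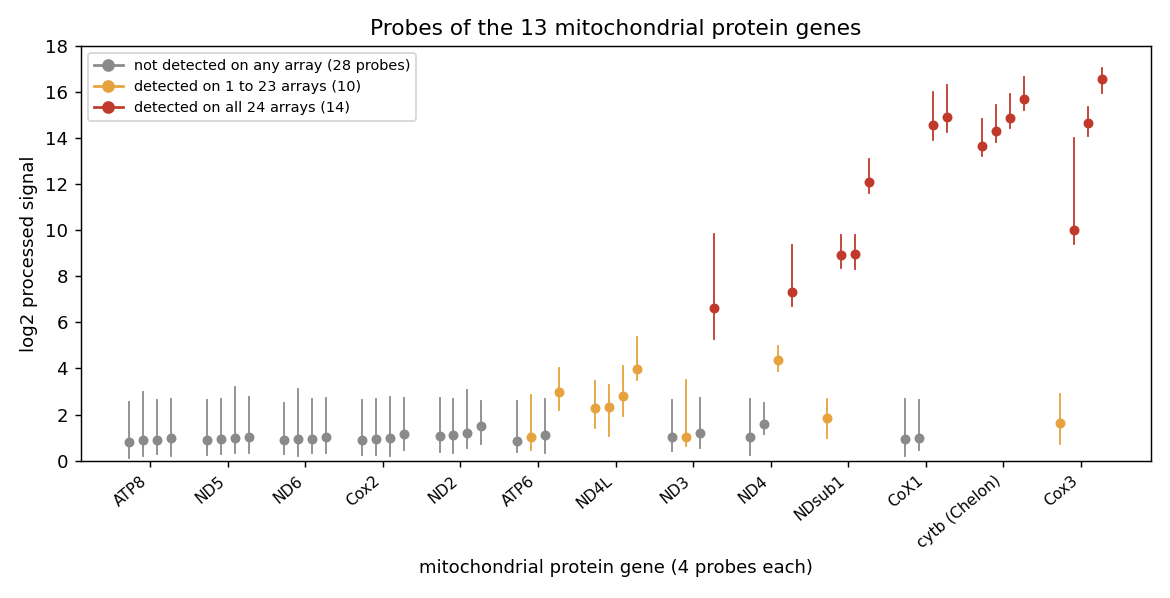
Log2 processed signal (y axis) of each of the 52 probes of the 13 mitochondrial genes (x axis), where a dot is the median of 24 arrays and a line runs from the lowest to the highest array. The 28 silent probes are grey, the 10 detected on some arrays orange and the 14 detected on all 24 red; the cytb medians, named for Chelon labrosus, lie between 13.7 and 15.7.

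The species in the gene name gave mixed shares of silent probes. Of 48 mitochondrial probes named for Mugil cephalus, another mullet, 28 were silent (58.3%, in 9 of 12 genes), while 0 of the 4 cytb probes named for Chelon labrosus were. Outside the mitochondrial genes 16 of 48 Mugil cephalus probes were silent (33.3%, in 6 of 12 genes). Of other mullets, Liza had 0 of 16 probes silent, in 0 of 4 genes, and Mugil platanus 3 of 4, in its single gene. Of the 514 probes with no species in their name, 45 were silent (8.75%, in 13 of 135 genes). Of the 4 opsin probes named for Chelon labrosus, 2 were silent. Of the 6 Mugil cephalus genes with a silent probe outside the mitochondrial set, 5 belong to brain or pituitary, so the species in the name and the tissue of the gene cannot be told apart here.

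Members had lower GC content than other probes. The median was 43.6% in members against 49.1% in the other probes and 50.9% in those detected on all 24 arrays. Outside the mitochondrial genes it was 43.6% against 50%, while within them it was 43.6% on both sides.

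Genes of brain, pituitary and eye supplied 7 genes and 17 of 28 probes, against 14.7% of all probes. Each of these genes had at least 1 probe detected on some array. The list held 3 forms of gonadotropin-releasing hormone (chicken-II, salmon and seabream types), the hypothalamic peptides that drive gonadotropin release, plus GPR54, the kisspeptin receptor, growth hormone, the dopamine receptor and opsin. None of the 28 probes was detected on all 24 arrays. Opsin was detected at its brightest probe on 7 arrays, at 1.90 to 3.81 (median 2.62), with its dimmest silent probe at 0.17 to 2.63 (median 0.93). GPR54 was detected on 7 arrays, at 1.93 to 3.53 (median 2.55), beside 0.03 to 2.48 (median 0.76).

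The other 5 reached the flag on 1 or 2 arrays. The salmon-type hormone did so on 2 arrays, at 0.98 to 3.81 (median 2.13), beside a dimmest silent probe at 0.67 to 2.71. Chicken-II (0.28 to 4.29), seabream-type (0.25 to 4.21), dopamine receptor (0.12 to 3.51) and growth hormone (0.21 to 3.68) did so on 1 array each, and their medians were 0.92, 0.95, 0.77 and 0.93. The medians of their dimmest silent probes were 0.94, 0.92, 0.93 and 0.96. Detection in each of these 4 genes rested on a single array. The highest values of chicken-II and the dopamine receptor lay on outer second replicate 5. On that array 8 of 77 negative control spots were well above background too, and the negative controls' 95th percentile was 6.52.

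In the AhR and efflux list 9 of 32 probes were silent, against 14.7% of all probes. They were 3 in each of AHRR, AHRnt1 and ABCC3, and none of the list's 8 genes was silent throughout. The receptors were detected more widely, AHR2 on 23 to 24 arrays by every probe and AHR1 on 2 to 21. ABC-B11, the bile salt pump, was detected on 24 arrays by every probe, ABCC2 on 23 and ABC-b1 on 18 to 23. Averaged over its 3 silent probes, AHRR ran from 0.26 to 1.07 and from 0.39 to 1.26 in the inner and outer harbour at the first sampling, and from 0.88 to 1.99 and 0.48 to 2.62 at the second.

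On scaled values the single detected AHRR probe was called between samplings in the inner harbour. It lay at 1.54 to 2.47 (median 2.21) at the first and at 2.33 to 4.65 (median 3.35) at the second sampling, where it was detected on 1 and 2 of 6 arrays. The groups overlapped between 2.33 and 2.47. Scaled to the array, the second sampling was higher by 1.36 ± 0.41 (SE, 6 arrays a group; limma adjusted p = 0.0220). With the negative control mean subtracted instead, the difference was 0.74 (limma adjusted p = 0.408), so the call depends on the scaling. It was also lost without inner second replicate 2 (adjusted p = 0.0596) or 7 (adjusted p = 0.0531). Its adjusted p ran from 0.00752 to 0.481 over the alternatives. In the outer harbour the probe lay at 1.62 to 2.93 at the first and at 1.47 to 4.03 at the second sampling, and was not called.

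ABCC3, an efflux pump for glucuronide and bile salt conjugates, was silent at 3 probes, while the other one was detected on 14 arrays. That probe was detected on 6 of 6 inner and 5 of 6 outer arrays at the first sampling, and on 2 and 1 at the second. The median number of all probes detected on an array was also lower at the second sampling. It was 468 (inner) and 472 (outer) at the first, and 445.5 and 434 at the second. The ABCC3 probe's values were 3.59 to 4.67 (median 4.36) and 2.90 to 5.10 (median 3.97) at the first sampling. At the second they were 2.01 to 4.64 (median 2.92) and 1.98 to 2.92 (median 2.66). In the outer harbour the groups overlapped only between 2.90 and 2.92. The scaled level fell by 1.37 ± 0.43 there (SE, 6 arrays a group; limma adjusted p = 0.0354). With the negative control mean subtracted the fall was 2.33 (limma adjusted p = 0.00449). In that setting 261 of 638 probes were called, 0 of them higher, and the median difference over all probes was -0.83. The scaled call was lost when one of 5 arrays was left out (outer first 2 and 4, outer second 4, 5 and 6), with limma adjusted p up to 0.0803. Leaving out both arrays of the highest control signal lost the scaled call too (limma adjusted p = 0.101). In the inner harbour it was lower by a scaled 1.08 ± 0.43 (limma adjusted p = 0.0901), which missed the threshold. The ends of this probe overlap with none of the 3 silent ones by 12 or more bases.

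Survival genes, cell cycle genes and kinases had 9 of 64 probes silent, a share near the 14.7% over all probes. BCL2, which blocks cell death, and c-fyn, a Src family kinase, were silent throughout, and C-src had 1 silent probe. BCL2 averaged 0.47 to 1.51 (median 0.89) and 0.60 to 1.40 (median 0.93) at the first and 0.91 to 2.05 (median 1.39) and 0.74 to 2.73 (median 1.24) at the second sampling, inner before outer. c-fyn lay at 0.14 to 2.73 (median 1.09) over all arrays. BAX, which promotes cell death, was detected on only 1 to 4 arrays by each probe, Caspase_3 on 5 to 12 and p53 on 24. The C-src silent probe lay at 0.60 to 2.73 (median 1.77) and overlaps by 49 to 54 bases with the 3 detected ones, of which the brightest passed on 2 arrays.

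Receptors, immune and ubiquitin genes each gave 4 silent probes, all of 1 gene. THR_B, whose name reads as a thyroid hormone receptor beta, was silent at a median of 1.14 (0.23 to 2.81), whereas the alpha receptor was detected on 22 to 23 arrays by every probe and both oestrogen receptors on 23. Intelectin, a lectin that binds microbial sugars, was silent at a median of 0.93 (0.22 to 3.92), its highest value lying on an outer array of the second sampling. Ubiquitin_specific_protease8, which removes ubiquitin from cargo, was silent at a median of 1.25 (0.54 to 3.48), while the other 3 ubiquitin and proteasome genes were detected on 24 arrays. Of its 384 spots 13 were well above background, spread over as many as 6 arrays for 1 probe.

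The array spellings CYP9A1, Mugil_cephalusDyst, ZNTP2-781, cB1 and PUFA name no settled gene, so no role is given. Of their 20 probes 19 were silent. Only spellings with a silent probe were put in this list, so that share follows in part from how the list was made. CYP9A1 lay at 0.14 to 2.74 (median 0.97), Dyst at 0.25 to 3.13 (median 1.02), ZNTP2-781 at 0.56 to 3.29 (median 1.30) and cB1 at 0.23 to 4.35 (median 1.18). PUFA had 1 probe detected on 1 array, at 0.09 to 4.21 (median 0.81).

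Of the 5376 spots of the 56 probes in the all-silent genes, 110 (2.05%) were well above background. Over all 94 members it was 198 of 9024 (2.19%), and among the negative control spots 39 of 1848 (2.11%). The rule itself keeps the share of members low, so nothing is read from this likeness. By a lower bar, 24.3% of member spots were positive and significant against 8.39% of negative control spots, and 75.7% against 91.6% held a surrogate value. The probes of a gene often read the same stretch. All 4 probes rested on 1 overlapping window in 10 of the 14 all-silent genes, in 8 of the 16 others and in 123 of all 166 genes, so they share a target and are not independent.

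The members followed the negative controls from array to array. Most spots of both kinds held a surrogate value, 75.7% of member and 91.6% of control spots, so nothing is read from this likeness. The median member minus the mean negative control ran from -0.40 to 0.17 (median -0.05) over the 24 arrays, and lay within 0.5 on all 24. Outer second replicates 4 and 5 had the highest negative control means, 2.74 and 2.87, while no other array exceeded 1.96. The group means were 0.86 ± 0.23 and 0.78 ± 0.43 at the first, and 1.37 ± 0.50 and 1.58 ± 0.99 at the second sampling (SD, n = 6, inner before outer). The median member had a lowest, middle and highest value of 0.37, 0.75 and 1.06 in the inner and 0.44, 0.77 and 1.16 in the outer harbour at the earlier sampling. At the later one these were 0.76, 1.22 and 1.82, and 0.60, 1.23 and 2.66. Both arrays lie on slide 2.

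**Figure D3:**
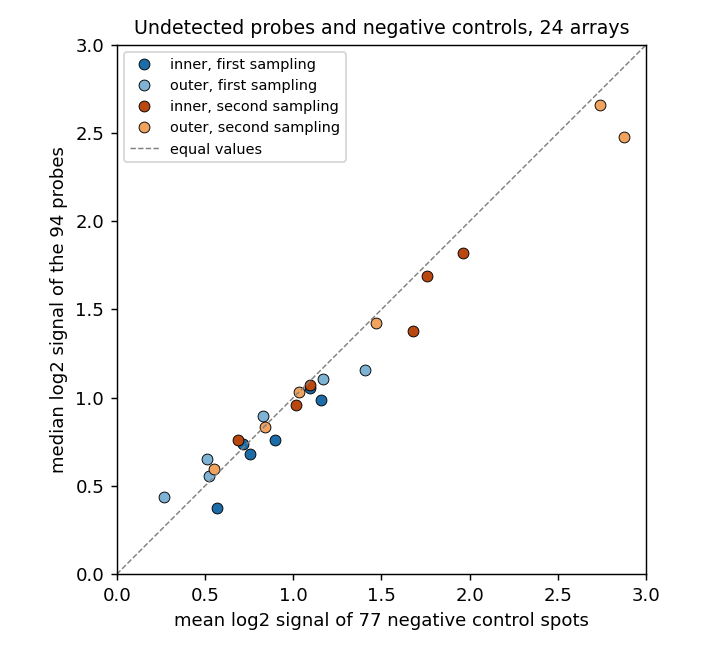
Median log2 signal of the 94 silent probes (y axis) against the mean log2 signal of the 77 negative control spots (x axis), 1 point for each of the 24 arrays, coloured by group, with a dashed line of equal values. The points lie near that line, with outer second replicates 4 and 5 at the upper end.

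For each all-silent gene, the highest group mean of any single probe was taken over the negative control mean of the same arrays. These single-probe values, not averages over a gene's probes, ran from -0.01 (ATP8) to 0.86 (cB1). Next below cB1 came ZNTP2-781 at 0.75, THR_B at 0.71, Ubiquitin_specific_protease8 at 0.64, ND2 at 0.63, c-fyn at 0.61, Dyst at 0.56, BCL2 at 0.29, Cox2 at 0.21 and CYP9A1 at 0.15. The rest were ND5 at 0.13, Intelectin at 0.11 and ND6 at 0.08. All of these values lie under 1 log2 unit, and 3 of 94 members exceeded the 95th percentile of the negative controls on 12 or more arrays, while 22 exceeded it on none.

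Near the threshold the choice was narrow. Of the 94 members, 12 had no spot above background on any array, and 82 had 1 of their 4 spots above it on at least 1 array, on 7 arrays at most (AHRnt1 and ZNTP2-781). Next inside came Ubiquitin_specific_protease8 on 6 arrays and ND4 on 5. Just outside were 27 probes detected on exactly 1 array, 18 of them by exactly 50% of their spots. The first 5 of these, taken by the lowest share of spots above background and then the fewest arrays with such a spot, were C-src (1.19 to 4.39, median 1.96), RAG1 (0.44 to 3.69, median 1.06), seabream-type hormone (0.25 to 4.21, median 0.95), growth hormone (0.21 to 3.68, median 0.93) and PUFA (0.09 to 4.21, median 0.81). Of the 27, 8 were detected only on outer second replicate 5, 6 only on inner first replicate 5 and 5 only on outer first replicate 8. In the same order, 8, 0 and 0 of 77 negative control spots were well above background there. The 95th percentile of the negative controls was 6.52, 0.87 and 0.73. With 25% of the spots as the bar, or any spot at all, 12 silent probes and 0 all-silent genes were left.

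**Figure D4:**
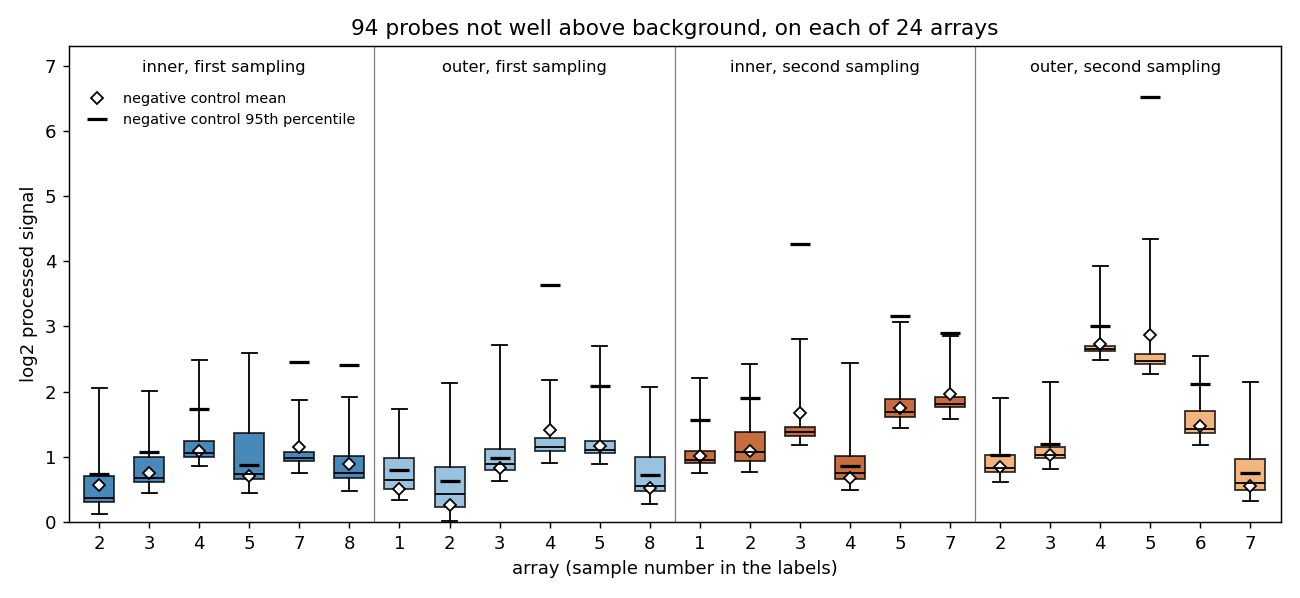
Log2 processed signal (y axis) of the 94 silent probes on each of the 24 arrays (x axis, sample numbers by group), where a box spans the middle quartiles with the median and whiskers reach the lowest and highest probe. Diamonds mark the mean and bars the 95th percentile of the negative controls; the medians lie between 0.37 and 2.66, with both highest in the outer harbour at the second sampling.

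Sites and samplings were compared with limma over all 638 probes, on log2 signals minus each array's 75th percentile, at a Benjamini-Hochberg adjusted p under 0.05. Because no member passed the 50% bar in either group of a contrast, the log2 differences given below for members are of signals near background. They are not read as folds of a transcript. Between the harbours 0 of 94 members were called at the first sampling (1 at unadjusted p under 0.05), where 6.43% of all probes were. At the second sampling it was also 0 (1 unadjusted), against 8.31% of all probes. The interaction of site and sampling gave 0 members (0 unadjusted), against 7.21%. No member had groups without overlap between the sites, where 1.88% and 5.80% of all probes did. The 26 other probes of these genes gave 0 calls in all 3 of these contrasts, with 0, 2 and 0 at unadjusted p under 0.05. Of these 26, 1 was called between samplings in the inner harbour (AHRR, higher), against 18.2% of all probes. In the outer harbour it was also 1 (ABCC3, lower), against 20.2%.

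Between samplings, in the inner harbour 1 member was called, a cB1 probe, higher at the second, with 18.2% of all probes called, 13.01% called higher, and 23 members at unadjusted p under 0.05. Its values were 0.29 to 1.22 (median 0.84) at the first and 1.11 to 1.99 (median 1.66) at the second sampling, which overlap between 1.11 and 1.22. The scaled difference was 0.90 ± 0.28 (SE, 6 arrays a group; limma adjusted p = 0.0237), higher in each of the 3 slides. No member had groups without overlap, against 8.62% of all probes. With the negative control mean subtracted it was 0.29 (limma adjusted p = 0.482). No member was called without inner first replicate 2, 3 or 5 or inner second replicate 3 or 7, and 6 were without inner first replicate 7. The median scaled difference was 0.59 over members and 0.24 over all probes, and 93 of 94 members had a positive difference. Before scaling, the negative control mean rose by 0.40, 0.28 and 0.83 on slides 1, 2 and 3, and the members' median difference was 0.45, 0.15 and 0.88.

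In the outer harbour 35 members in 22 of 30 genes were higher at the second sampling and 0 lower, where 20.2% of all probes were called and 10.03% called higher. The median scaled difference was 0.87 over members and 0.13 over all probes, and 94 of 94 members had a positive difference. The groups did not overlap for 2 members, against 8.46% of all probes. On slides 1, 2 and 3 the negative control mean rose by 0.54, 1.69 and 0.17 log2 units before scaling. The members' median difference in the same unscaled unit was 0.44, 1.56 and 0.17. On scaled values it was 0.78, 1.98 and -0.11, beside 0.28, 0.31 and -0.27 over all probes, and the 35 called members were higher in 35, 35 and 18 cases. Without outer second replicates 4 and 5, an alternative added after the values were seen, 0 members were called (6 at unadjusted p under 0.05). With 1 array left out, 4 or 5 were called without outer first replicate 1, 2, 3 or 4 or outer second replicate 4, 5 or 6. The count was 19 without outer second replicate 3, 56 without outer first replicate 5 and 68 without outer second replicate 7. With the negative control mean subtracted, 0 members were called higher and 2 lower, where 261 of all 638 probes were called and 0 of them higher. What part the control signal, slide or both arrays had in the 35 calls was not tested.

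The Cox2 probe had the smallest adjusted p. Its values were 0.21 to 1.11 (median 0.63) at the first and 1.04 to 2.74 (median 1.61) at the second outer sampling, overlapping between 1.04 and 1.11. On the scaled values the means were -10.66 ± 0.44 and -9.39 ± 0.59 (SD, n = 6), a difference of 1.27 ± 0.32 (SE; limma adjusted p = 0.00844), which shrank to 0.31 (limma adjusted p = 0.0836) against the negative controls. Dyst went from a median of 0.72 to 1.37, with a scaled difference of 1.19 ± 0.32 (limma adjusted p = 0.0147) that became 0.23 (limma adjusted p = 0.213).

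The remaining named members were called on the scaled values, and none of them after subtraction of the control mean. That subtraction shifts the difference of every probe in a contrast by the same amount. The smaller values, here and for Cox2 and Dyst, are therefore not separate checks of each gene. ATP6 differed by 1.06 (limma adjusted p = 0.00929), then by 0.10. The salmon-type hormone differed by 1.10 (limma adjusted p = 0.0130), then by 0.14. cB1 differed by 0.91 (limma adjusted p = 0.0308), then by -0.06, a reversed sign.

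The dopamine receptor (1.03), growth hormone (1.08), ND5 (1.02), PUFA (1.04) and ABCC3 (1.13) had limma adjusted p between 0.0335 and 0.0414. Their differences against the negative controls were 0.07, 0.12, 0.05, 0.08 and 0.17. On scaled values the silent ABCC3 probe was higher and the detected one lower between the same outer arrays. On outer second replicates 4 and 5 the silent probe lay at 2.58 and 3.24 and the detected one at 2.63 and 2.89. The negative control means there were 2.74 and 2.87. Both probes thus lay near the control mean on these arrays, and the opposite signs are not read as directions of the gene. The silent probe had 0.14 to 1.12 at the first and 0.48 to 3.24 at the second sampling. The detected one fell as given above. Neither called member after subtraction was among these: AHRnt1 was lower by 0.80 (limma adjusted p = 0.0400) and ND3 by 0.50 (limma adjusted p = 0.0342). In that setting the median difference was -0.83 over all probes and -0.09 over members.

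By gene, the dopamine receptor had 3 of 3 members called, ND5 3 of 4, and CoX1 and GPR54 2 of 2. Growth hormone and PUFA had 2 of 3 called, and Cox2, Dyst, BCL2, CYP9A1 and Intelectin 2 of 4. ABCC3 had 1 of 3, the salmon-type and chicken-II hormones, ATP6, ND3 and opsin 1 of 2, and cB1, ND2, c-fyn, ATP8 and ND6 1 of 4. AHRR, AHRnt1, C-src, the seabream-type hormone, ND4, THR_B, Ubiquitin_specific_protease8 and ZNTP2-781 had none.

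**Figure D5:**
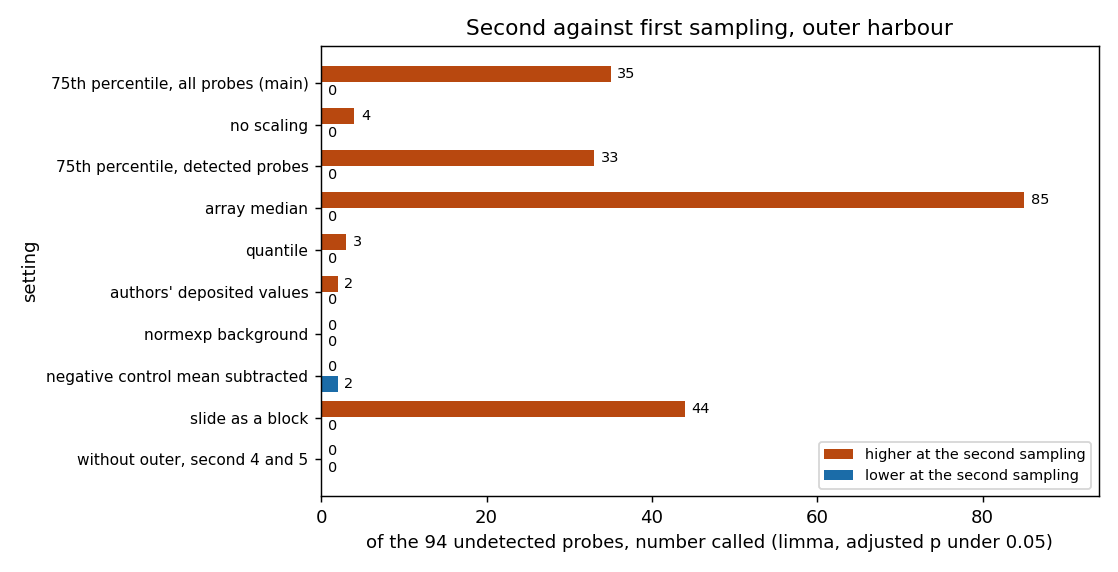
Number of the 94 silent probes called between samplings in the outer harbour (x axis; limma, adjusted p under 0.05) under each of 10 settings (y axis), split into higher and lower at the second sampling. The count of higher calls is 35 as reported and runs from 0 to 85 over the settings drawn, and lower calls occur only with the negative control mean subtracted.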

How the data were processed

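The deposited scanner files hold one intensity per spot, which Agilent Feature Extraction 9.5.3.1 corrected for background and for trends across the array. Surrogates replaced the dimmest spots, per the file headers. The authors' deposited log2 table served as an alternative. All 24 columns of it were nearest to their own array, with r of at least 0.992, and its normalization is not given in the sources used here. Per the labels' protocols, RNA was reverse transcribed from an oligo-dT primer with a T7 promoter and carried Cy3.

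Spots marked uneven or outlying were left out of levels, not of the membership count. A probe's level is the mean log2 signal of its spots, less the 75th percentile of that array. Groups were compared with limma 3.58.1 (R 4.3.3, moderated test, two-sided) over 638 probes and 24 arrays, with 1 coefficient per group and no filter on dim probes. Python 3.11.15 made the counts. The fit was tested on simulated data. Those data had separate noise for each probe and no shift of background shared across an array. The simulation therefore does not bear on the calls among members. The number of arrays limits the precision.

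Every gene with a silent probe was named. Values were given for the all-silent genes, for each partly silent gene's brightest detected and dimmest silent probe, for probes nearest the threshold, and for up to 10 called genes a contrast. Members, lists and role groups were chosen with earlier results of these data known. The detected AHRR and ABCC3 probes were singled out after their values were seen.

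Replicate numbers were not used as pairs in the main fit, since the labels state no pairing. Same-numbered arrays had deviations correlated at -0.36 to 0.369 over 19 pairs. Differently numbered arrays were not compared, so these correlations cannot decide whether the numbers pair the samples. The alternatives were other scalings, background corrections, the deposited table, blocks, spot thresholds and arrays left out.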

Additional observations from a re-analysis of the deposited data

Results flagged for a closer look

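In 3 of 56 groups tested, 1 array lay far from the other 5; chance gives about 1 in 20. All 3 concern the percent of member spots well above background. Inner first replicate 8 had 4.26%, where the others had 1.06% to 1.86%. Outer first replicate 4 had 7.18%, where the others had 0.266% to 1.86%. Outer second replicate 5 had 8.51%, where the others had 0% to 2.13%. These 3 arrays also had the most negative control spots well above background in their groups, 3, 4 and 8 of 77. Other inner arrays of the first sampling had up to 2 such control spots, so the count there was barely higher. Whether the flagged percentages are particular to the members was not tested.

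The lower bar gave a difference too: 24.3% of member spots were positive and significant, against 8.39% of negative control spots. The other 75.7% and 91.6% held a surrogate value. Both flags rest on the same spot signals, so this one is not independent of the flag that chose the members. The cause of the difference was not tested.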

How the results depend on the processing

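Membership depended on the flag. The 94 silent probes became 12 with 25% of the spots or any spot at all as the bar, 16 with the positive and significant flag and 25 with the 95th percentile of negative controls. The 14 all-silent genes became 0 under each of these 4, 22 with 75% of the spots and 23 when silence on at least 22 of 24 arrays sufficed. The 16 partly silent genes became 10 with 25% or any spot. Leaving out 1 array gave 94 to 102 probes, 14 to 18 all-silent and 14 to 18 partly silent genes.

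The 35 members called between samplings in the outer harbour became 4 with no scaling, 85 with the array median, 3 with quantile normalization, 2 with the negative control mean subtracted (both lower), 2 with the deposited values, 0 with normexp and 11 with only the compared groups. They became 0 without both arrays of highest control signal, added after the data were seen, and 4 to 68 with 1 array left out. The 1 inner member became 0 with no scaling, the percentile over detected probes, quantile normalization, the subtracted control mean, the deposited values and normexp, and 0 to 6 with 1 array left out. At the second sampling quantile normalization called 1 member between sites, a Cox2 probe lower by 0.57 in the inner harbour (limma adjusted p = 0.00592). With 1 array left out, 0 members were called between sites or for the change of the site difference. cB1 in the outer harbour reversed to -0.0553 with the control mean subtracted. The filter on dim probes removes every member.

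Calls over all probes moved too. Between sites at the first sampling, 41 became 10 (no scaling), 26 (percentile over detected probes), 25 (quantile), 6 (control mean), 19 (normexp), 69 (dim filter), 9 (compared groups) and 18 to 72 (1 array left out). At the second, 53 became 31, 33, 8 (array median), 23 (quantile), 12 (control mean), 14 (deposited), 34 (without both arrays) and 21 to 58. Between samplings, 116 inner calls became 55 (control mean) and 88 to 118. The 129 outer calls became 69 (no scaling), 225 (array median), 74 (quantile and deposited), 261 (control mean), 48 (normexp), 79 (dim filter), 41 (without both arrays) and 67 to 181. For the change of the site difference, 46 became 21 (no scaling), 11 (percentile over detected probes), 27 (array median), 12 (quantile and deposited), 0 (control mean, limma; 92 at unadjusted p under 0.05) and 33 to 70.

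With a replicate block, 1 outer member was called instead of 35, and calls over all probes became 14 and 36 between sites, 103 and 62 between samplings and 35 for the change. The numbers share no stated pairing. For the named probes, 67 other settings kept the call, 75 lost it and 1 reversed; with 1 array left out, 104 kept it and 52 lost it. The cause was not tested.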

Other observations

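NAD(P)Hquinone_dehydrogenase, an enzyme that reduces quinones, lay just outside the silent set and was singled out after its values were seen. All 4 of its probes were detected on 1 array only, outer first replicate 8, by 100% of their spots. They lay at 3.42 to 4.09 there and at 0.28 to 2.73 on the other 23 arrays.

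Name prefixes left out 15 further probes with no detected array, in 6 gene names: CYP19A2, Cyp19A2, CYP1_C, Cyp1, CYP1Bb and VTG-A. The prefix CYP1 also took the spellings of CYP19A2, an aromatase that makes oestrogen.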
